A study of Mus musculus with 12 samples.

Results

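The expression of 8 genes of cholesterol synthesis was followed in mouse embryonic fibroblasts over 10 days of treatment with 1 of 2 chemical combinations, out of 10674 genes tested. The 8 were taken by name as targets of the transcription factor SREBP2. They are Hmgcs1, Idi1 and Fdps of the early mevalonate route, Sqle, Lss, Cyp51 and Hsd17b7 of the steps from squalene to cholesterol, and Srebf2, which encodes SREBP2 itself. None of the 8 is an uptake gene, so uptake is described below from other genes. All 8 passed the filter on dim genes.

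Cells build cholesterol from acetyl units, first through mevalonate and farnesyl diphosphate to squalene, then by oxidising and closing squalene into lanosterol, and last by trimming lanosterol in a series of sterol steps. SREBP2 sets the output of the route. It is held in the endoplasmic reticulum by SCAP and the INSIG proteins while membrane sterols are plentiful, and it is cleaved and carried to the nucleus when they run low. Fibroblasts in culture draw cholesterol both from this route and from serum lipoproteins, and they pass an excess out again by ABC transporters and oxysterols.

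The fibroblasts came from embryos of a strain not given in the sources used here and grew in a medium with 10% fetal bovine serum. They were then moved to a treatment medium with 15% fetal bovine serum and 40 ng/ml of basic fibroblast growth factor. The groups were SGCF at days 0, 5 and 10 and 6TCF at days 0, 5 and 10, with 2 arrays in each of the 6 groups and 12 Affymetrix Mouse Genome 430A 2.0 arrays in all. SGCF and 6TCF are code names of the combinations, and what they hold is not stated in the labels. The labels name no vehicle culture kept for 5 or 10 days, so a change from day 0 also holds time in culture and the new medium. They do not state whether the day 0 arrays were taken before any exposure to the combinations either, so day 0 is not known to be an untreated state. The labels do not say whether replicates came from separate embryos or cultures, and p-values then measure only the spread between these arrays.

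Values are given as log2(intensity + 16) after quantile normalization between the arrays, a scale that understates the changes of dim genes, and a gene was called when its adjusted p was under 0.05. The number of arrays limits the precision. The 2 arrays of a group correlated at r = 0.985 to 0.996 across genes, and arrays of different groups at 0.924 to 0.983; genes are not independent replicates. All 10 fibroblast markers (Col1a1, Pdgfra, Thy1 and others) lay above the floor for dim genes on every array. The median of the deposited intensities was 60.9 to 86.2 on SGCF arrays and 102 to 142 on 6TCF arrays, so a processing batch and the arm cannot be told apart. Fewer cells of a type and less RNA per cell cannot be told apart either.

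The start regions of 4 of the 8 genes are shown because each holds the letters TCACNNCA, a loose form of the sterol response element that SREBP proteins bind. Each window runs from 250 bases before to 50 after a start site of the gene, on the gene's own strand, on GRCm38.p6. For Hsd17b7 that site is not the outer end of the gene's span given below, 169969242. Capitals mark TCACNNCA and the CCAAT box, which NF-Y binds beside SREBP sites, on either strand. The windows are chr13:119690101-119690400 (plus strand) for Hmgcs1, chr5:4104648-4104947 (minus strand) for Cyp51, chr1:169969156-169969455 (minus strand) for Hsd17b7 and chr15:82147019-82147318 (plus strand) for Srebf2.
Hmgcs1: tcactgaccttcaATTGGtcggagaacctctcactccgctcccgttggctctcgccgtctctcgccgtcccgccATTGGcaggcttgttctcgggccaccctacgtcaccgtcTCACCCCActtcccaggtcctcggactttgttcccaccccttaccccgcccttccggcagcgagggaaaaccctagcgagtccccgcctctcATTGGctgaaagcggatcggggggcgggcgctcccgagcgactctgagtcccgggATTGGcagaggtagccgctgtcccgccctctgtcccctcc
Cyp51: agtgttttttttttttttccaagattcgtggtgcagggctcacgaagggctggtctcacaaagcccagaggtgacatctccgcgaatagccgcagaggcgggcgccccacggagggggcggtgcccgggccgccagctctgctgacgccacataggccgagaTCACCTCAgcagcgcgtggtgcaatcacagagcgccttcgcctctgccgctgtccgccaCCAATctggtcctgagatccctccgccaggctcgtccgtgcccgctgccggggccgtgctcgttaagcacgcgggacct
Hsd17b7: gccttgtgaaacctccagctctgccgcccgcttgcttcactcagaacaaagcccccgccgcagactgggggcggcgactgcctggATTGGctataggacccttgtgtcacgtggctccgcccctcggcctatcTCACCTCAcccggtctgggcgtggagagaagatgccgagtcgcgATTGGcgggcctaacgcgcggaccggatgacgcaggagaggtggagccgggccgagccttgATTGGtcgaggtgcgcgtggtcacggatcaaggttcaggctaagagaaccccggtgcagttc
Srebf2: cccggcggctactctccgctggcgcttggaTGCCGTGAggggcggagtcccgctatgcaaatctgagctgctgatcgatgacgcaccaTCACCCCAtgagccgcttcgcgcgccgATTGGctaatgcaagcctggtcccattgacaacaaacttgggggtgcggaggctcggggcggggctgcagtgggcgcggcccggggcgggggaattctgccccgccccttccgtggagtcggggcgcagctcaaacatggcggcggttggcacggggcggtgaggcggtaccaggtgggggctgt

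TCACNNCA was found in 4 of the 6 member windows available, on either strand, and in 13.84% of all 32851 windows of 300 bases. The stricter TCACCCCA, which is one form of TCACNNCA, was found in the Hmgcs1 and Srebf2 windows, 137 and 162 bases before the start, and in 1.556% of all windows. In Cyp51 and Hsd17b7 the loose form read TCACCTCA, 88 and 117 bases before the start. The CCAAT box was in 6 of the 6 windows and in 37.41% of all windows, and GGGCGG, the GC box that Sp1 binds, in 6 of 6 and in 35.66%. CACGTG, an E-box, was in the Hsd17b7 window only and in 7.15% of all windows. The letters were chosen after the sequences had been seen, and a match is a description of the window, not of a bound site. The windows of Idi1 and Lss held no TCACNNCA, and Fdps and Sqle are named only.

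Cholesterol synthesis genes were lower after day 0 in both arms. At day 5 against day 0, 6 of the 8 genes fell in SGCF cultures, where 12.6% of all genes fell, and 6 of the 8 fell in 6TCF cultures, where 12.5% did. At day 10 against day 0, 5 of the 8 had fallen in SGCF, with 18.2% of all genes lower, and 7 of the 8 in 6TCF, with 20% lower. Not 1 of the 8 rose in these 4 comparisons, in which 12.8% (SGCF day 5), 20.4% (SGCF day 10), 15.1% (6TCF day 5) and 23.2% (6TCF day 10) of all genes rose. Hmgcs1, Fdps, Lss and Cyp51 fell in all 4 comparisons. The median change of the 8 genes was -1.19 at SGCF day 5 and -0.78 at SGCF day 10. In 6TCF it was -0.68 at day 5 and -0.66 at day 10. The median of all genes lay between -0.01 and 0.03, and quantile normalization between the arrays keeps that median near 0. Without replicate 1 or 2 of 6TCF day 0, the number of all genes called at 6TCF day 5 in either direction was 1844 or 1750, against 2945 with all arrays.

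**Figure D1:**
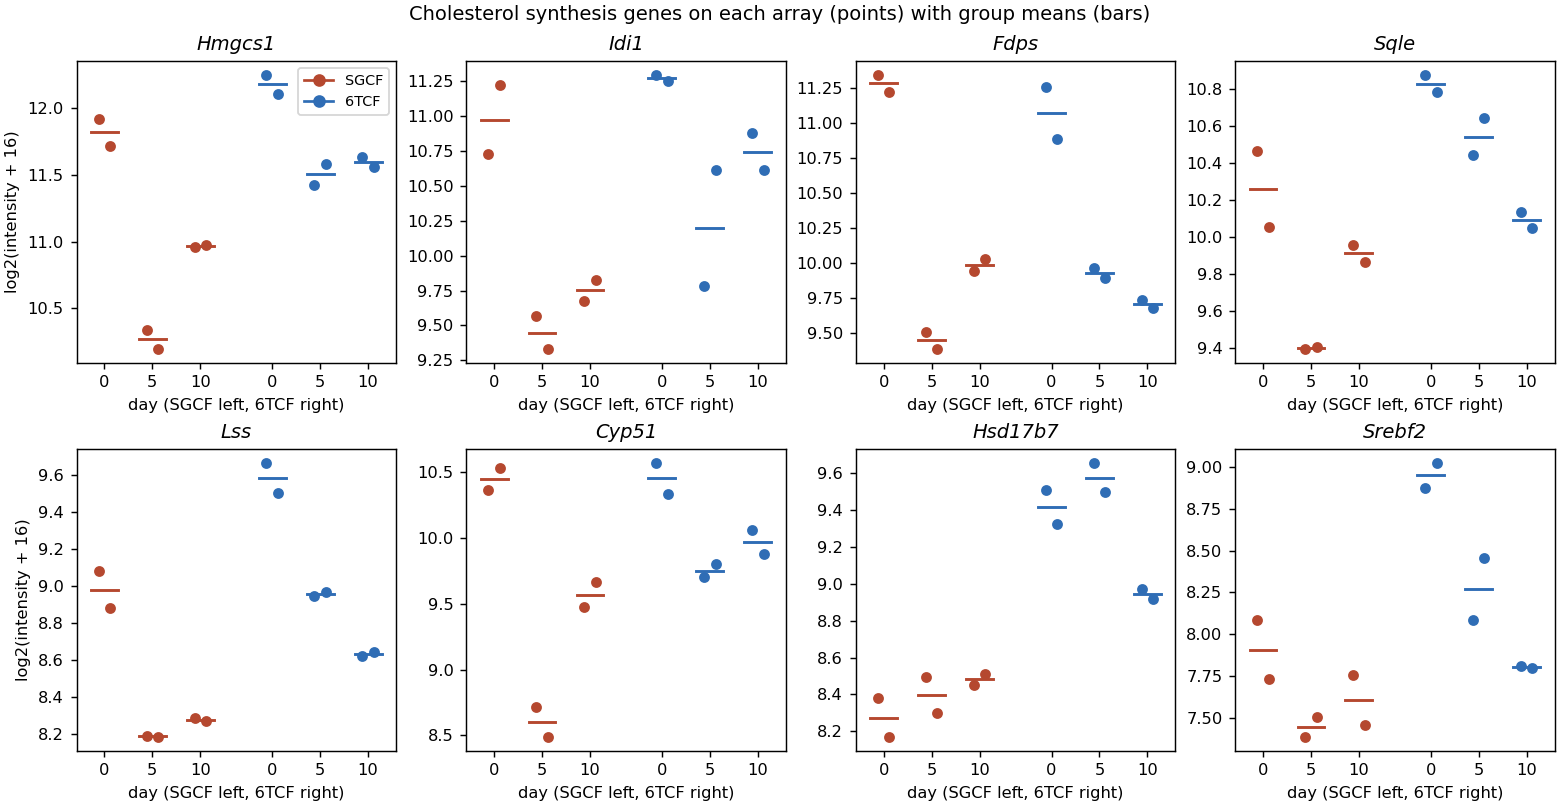
Each panel shows 1 gene, with log2(intensity + 16) on the vertical axis and the day of treatment on the horizontal axis, SGCF on the left and 6TCF on the right. Points are single arrays and bars the mean of the 2 arrays of a group. In every panel but those of Hsd17b7 and Srebf2 both SGCF day 5 points are the lowest, and the Hsd17b7 points of SGCF lie between 8.17 and 8.51 on all 3 days.

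Hmgcs1 encodes the cytosolic HMG-CoA synthase of the early mevalonate route (chr13:119690351-119708260). Its SGCF arrays read 11.92 and 11.72 at day 0, 10.34 and 10.20 at day 5, and 10.96 and 10.98 at day 10. The 6TCF arrays read 12.25 and 12.11 at day 0, 11.42 and 11.58 at day 5, and 11.63 and 11.56 at day 10. In both arms the day 0 arrays were above all later ones, and in SGCF the 3 days did not overlap. Hmgcs1 fell by 1.55 ± 0.12 at SGCF day 5 and by 0.85 ± 0.12 at SGCF day 10 on the log2 scale (SE; adjusted p = 2.6e-06 and 0.00022, limma). In 6TCF it fell by 0.67 ± 0.12 at day 5 and by 0.58 ± 0.12 at day 10 (adjusted p = 0.0016 and 0.0027). All 4 probe sets of Hmgcs1 were lower than at day 0 in all 4 comparisons.

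Idi1 encodes isopentenyl diphosphate isomerase, which supplies the allylic starter for farnesyl diphosphate (chr13:8885606-8892396). On SGCF arrays it read 10.73 and 11.22 at day 0, 9.57 and 9.33 at day 5, and 9.68 and 9.83 at day 10. On 6TCF arrays it read 11.30 and 11.25 at day 0, 9.79 and 10.62 at day 5, and 10.88 and 10.61 at day 10. The 6TCF day 5 arrays lay farther apart than those of any other group, and their upper array reached the lower day 10 array. Idi1 fell by 1.53 ± 0.24 at SGCF day 5 and by 1.22 ± 0.24 at SGCF day 10 (SE; adjusted p = 0.00056 and 0.0018). In 6TCF it fell by 1.07 ± 0.24 at day 5 (adjusted p = 0.0058), while the day 10 change of -0.53 ± 0.24 was not called (adjusted p = 0.098). Without either 6TCF day 5 array that change was called (-0.53, adjusted p = 0.032 and 0.031). The 6TCF day 5 fall rests on replicate 1, the lower array: without it the change was -0.66 with an adjusted p of 0.055.

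Fdps encodes farnesyl diphosphate synthase, at the branch between sterols and the isoprenoid groups of proteins, ubiquinone and dolichol (chr3:89093588-89101967). Its SGCF arrays read 11.35 and 11.23 at day 0, 9.51 and 9.39 at day 5, and 9.95 and 10.03 at day 10. Its 6TCF arrays read 11.26 and 10.89 at day 0, 9.97 and 9.90 at day 5, and 9.74 and 9.68 at day 10. The lowest group was day 5 in SGCF and day 10 in 6TCF, and no later array reached a day 0 array of its arm. Fdps fell by 1.84 ± 0.14 at SGCF day 5 and by 1.29 ± 0.14 at SGCF day 10 (SE; adjusted p = 1.3e-06 and 1.6e-05). In 6TCF it fell by 1.14 ± 0.14 at day 5 and by 1.37 ± 0.14 at day 10 (adjusted p = 6.2e-05 and 9.4e-06). The second of its 2 probe sets stayed below the floor for dim genes, with a mean of 4.53. When the 2 were averaged, the falls were nearer to 0, at -0.93 and -0.63 in SGCF and -0.57 and -0.69 in 6TCF, and were still called.

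Sqle encodes squalene epoxidase, the first oxygen-dependent step and a known control point of the route (chr15:59315092-59331193). It read 10.46 and 10.05 on the SGCF arrays of day 0, 9.40 and 9.41 on those of day 5, and 9.96 and 9.87 on those of day 10. On 6TCF arrays it read 10.88 and 10.78 at day 0, 10.44 and 10.64 at day 5, and 10.13 and 10.05 at day 10. Day 5 was thus the lowest day in SGCF and day 10 in 6TCF. Sqle fell by 0.85 ± 0.14 at SGCF day 5 (SE; adjusted p = 0.00093) and by 0.74 ± 0.14 at 6TCF day 10 (adjusted p = 0.0014). The changes of -0.35 ± 0.14 at SGCF day 10 and -0.29 ± 0.14 at 6TCF day 5 were not called (adjusted p = 0.078 and 0.17). The SGCF day 10 change was called without replicate 2 of SGCF day 0 (-0.55, adjusted p = 0.0095), with median scaling (-0.47, adjusted p = 0.019) and against the 4 day 0 arrays of both arms (-0.63, adjusted p = 0.024). With the 4 day 0 arrays of both arms as 1 group, the 6TCF day 10 change was -0.45 (adjusted p = 0.088).

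Lss encodes lanosterol synthase, which closes oxidised squalene into the first sterol (chr10:76531565-76557139). Its SGCF arrays read 9.08 and 8.88 at day 0, 8.19 and 8.18 at day 5, and 8.29 and 8.27 at day 10. Its 6TCF arrays read 9.67 and 9.51 at day 0, 8.95 and 8.97 at day 5, and 8.62 and 8.64 at day 10. The replicates of days 5 and 10 lay close together, and the 3 days of an arm did not overlap. Lss fell by 0.80 ± 0.12 at SGCF day 5, by 0.70 ± 0.12 at SGCF day 10, by 0.63 ± 0.12 at 6TCF day 5 and by 0.95 ± 0.12 at 6TCF day 10 (SE; adjusted p = 0.00033, 0.00053, 0.0016 and 4.9e-05). Its 3 probe sets disagreed. A less bright one changed by 0.43 ± 0.16 at SGCF day 10 and by 0.02 ± 0.16 at 6TCF day 5, and the mean of the 3 changed by -0.19 at SGCF day 10 (adjusted p = 0.20). Against the 4 day 0 arrays of both arms, the 6TCF day 5 change was -0.33 (adjusted p = 0.23).

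Cyp51 encodes the lanosterol 14-alpha demethylase, the cytochrome P450 of the route (chr5:4080674-4104697). On SGCF arrays it read 10.37 and 10.53 at day 0, 8.72 and 8.49 at day 5, and 9.47 and 9.66 at day 10. On 6TCF arrays it read 10.57 and 10.33 at day 0, 9.70 and 9.80 at day 5, and 10.06 and 9.88 at day 10. The day 0 arrays of the arms overlapped, and the SGCF day 5 arrays were the lowest of the 12. Cyp51 fell by 1.84 ± 0.14 at SGCF day 5 and by 0.88 ± 0.14 at SGCF day 10 (SE; adjusted p = 1.8e-06 and 0.00043). In 6TCF it fell by 0.70 ± 0.14 at day 5 and by 0.48 ± 0.14 at day 10 (adjusted p = 0.0029 and 0.015). The 6TCF day 10 call was lost without replicate 1 of 6TCF day 0 (-0.36, adjusted p = 0.14) and without replicate 2 of 6TCF day 10 (-0.39, adjusted p = 0.12).

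Hsd17b7 encodes a 17-beta-hydroxysteroid dehydrogenase that acts as the 3-keto reductase of the sterol demethylation complex (chr1:169949535-169969242), and it was the 1 enzyme of the 8 genes called in a single comparison with day 0. On SGCF arrays it read 8.38 and 8.17 at day 0, 8.50 and 8.30 at day 5, and 8.45 and 8.51 at day 10. On 6TCF arrays it read 9.51 and 9.32 at day 0, 9.66 and 9.50 at day 5, and 8.97 and 8.91 at day 10. SGCF readings were below all 6TCF readings, and the single group that stood apart from both other days of its arm was 6TCF day 10. There it fell by 0.47 ± 0.13 against day 0 (SE; adjusted p = 0.012), while the other 3 changes were 0.12 ± 0.13 at SGCF day 5, 0.21 ± 0.13 at SGCF day 10 and 0.16 ± 0.13 at 6TCF day 5 (adjusted p = 0.54, 0.24 and 0.41). Its second probe set gave -0.53 ± 0.11 at 6TCF day 10. The fall was lost without replicate 1 of 6TCF day 0 (-0.38, adjusted p = 0.11) or replicate 2 of 6TCF day 10 (-0.44, adjusted p = 0.069), and it became 0.10 (adjusted p = 0.83) when the 4 day 0 arrays of both arms formed 1 group.

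Srebf2 encodes SREBP2, whose own gene is among its targets (chr15:82147269-82205379). Its SGCF arrays read 8.08 and 7.73 at day 0, 7.39 and 7.50 at day 5, and 7.76 and 7.46 at day 10. Its 6TCF arrays read 8.88 and 9.02 at day 0, 8.08 and 8.45 at day 5, and 7.81 and 7.80 at day 10. Srebf2 was thus higher in 6TCF at day 0, and by day 10 its 6TCF arrays lay inside the range of the SGCF day 0 arrays. It fell by 0.68 ± 0.17 at 6TCF day 5 and by 1.15 ± 0.17 at 6TCF day 10 (SE; adjusted p = 0.0092 and 0.00018). The SGCF changes of -0.46 ± 0.17 at day 5 and -0.30 ± 0.17 at day 10 were not called (adjusted p = 0.060 and 0.18). The SGCF day 5 change was called in 5 of 19 alternatives. These were the mean over probe sets (-0.39, adjusted p = 0.035), the 4 day 0 arrays as 1 group (-0.98, adjusted p = 0.035), and leaving out replicate 2 of SGCF day 0 (-0.64, adjusted p = 0.028) or either 6TCF day 5 array (adjusted p = 0.047 each). The 6TCF day 5 call was lost without replicate 2 of day 0 (-0.61, adjusted p = 0.080) and without replicate 1 of day 5 (-0.50, adjusted p = 0.090), and a second probe set gave -0.05 ± 0.14 there and -0.52 ± 0.14 at day 10. Against the 4 day 0 arrays of both arms, the 6TCF changes were -0.16 at day 5 and -0.63 at day 10 (adjusted p = 0.74 and 0.12).

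**Figure D2:**
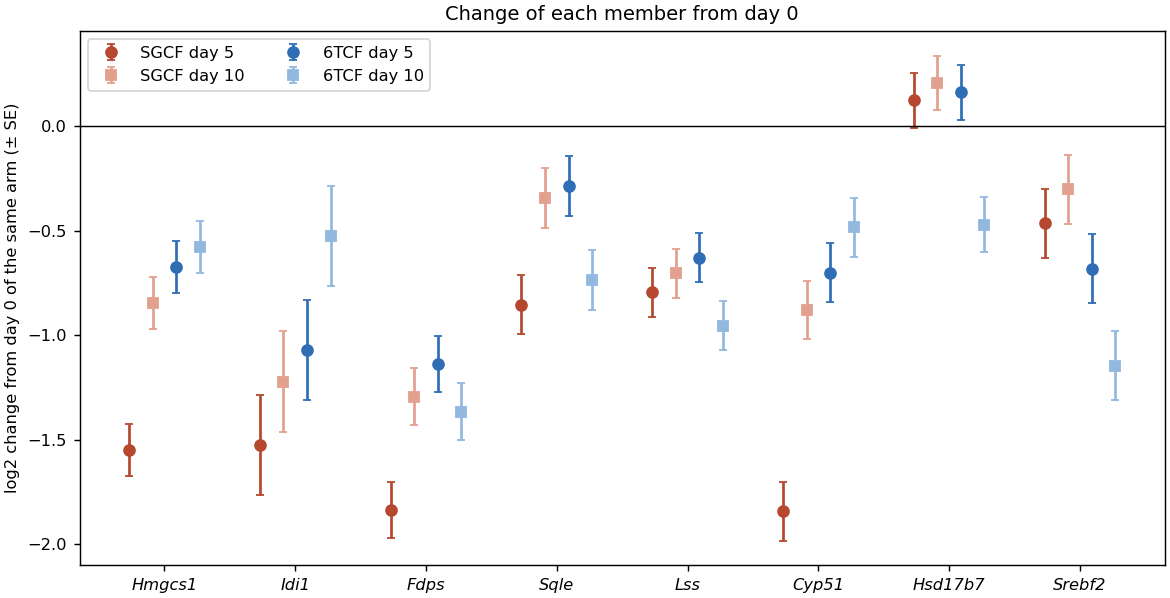
The log2 change of each gene from day 0 of its own arm, with the SE of the fit as bars, for SGCF days 5 and 10 and 6TCF days 5 and 10. Cyp51 and Fdps at SGCF day 5 are the lowest points, both at -1.84, and Hsd17b7 is the single gene with points above 0.

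Between days 5 and 10 part of the SGCF fall was undone. In SGCF, 4 of the 8 genes were higher at day 10 than at day 5, against 11.7% of all genes, and none was lower. Cyp51 rose by 0.96 ± 0.14, Hmgcs1 by 0.70 ± 0.12, Fdps by 0.54 ± 0.14 and Sqle by 0.51 ± 0.14 (SE; adjusted p = 0.00049, 0.0018, 0.014 and 0.025). For each of these 4 the day 10 arrays lay between the day 5 and the day 0 arrays of SGCF. Idi1 (0.30), Srebf2 (0.16), Lss (0.09) and Hsd17b7 (0.08) were not called. The Sqle call was lost without any 1 of the 4 arrays compared (adjusted p = 0.078 to 0.12) with median scaling (0.39, adjusted p = 0.067) and with the 6 arrays of that arm only (adjusted p = 0.086). The Fdps call was lost without replicate 2 of SGCF day 10 (adjusted p = 0.090) or replicate 2 of SGCF day 5 (adjusted p = 0.088), and with the mean over its probe sets, where the value was 0.30 (adjusted p = 0.058). The number of all genes called in either direction, 2302, was 1356 without replicate 2 of SGCF day 10 and 1466 without replicate 1 of SGCF day 5.

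In 6TCF, Hsd17b7 alone was called lower at day 10 than at day 5, 1 of the 8 genes against 7.01% of all genes, by 0.63 ± 0.13 (SE; adjusted p = 0.0096). Sqle (-0.45), Srebf2 (-0.46), Lss (-0.33) and Fdps (-0.23) lay below 0 without a call, with adjusted p-values of 0.054, 0.077, 0.077 and 0.27. Hmgcs1 (0.09), Cyp51 (0.22) and Idi1 (0.54) lay above 0 without one. The Hsd17b7 call was lost without replicate 1 or 2 of day 10 (adjusted p = 0.064 and 0.061) or replicate 1 of day 5 (adjusted p = 0.086). Sqle, Srebf2 and Lss were each called lower without either SGCF day 0 array (adjusted p = 0.016 to 0.046), and Idi1 was called higher without replicate 2 of 6TCF day 5 (0.96, adjusted p = 0.019). The number of all genes called in either direction, 1666, was 361 and 692 without replicates 1 and 2 of 6TCF day 10, 358 without replicate 1 of 6TCF day 5, and 2531 and 2526 without replicates 1 and 2 of SGCF day 0.

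The day 0 arrays of the arms were not alike. At day 0, 4 of the 8 genes were lower in SGCF than in 6TCF cultures, against 8.68% of all genes. Hsd17b7 was lower by 1.14 on the log2 scale in SGCF (change -1.14 ± 0.13, adjusted p = 0.00033) and Srebf2 similarly (-1.04 ± 0.17, adjusted p = 0.0025). Lss (-0.61 ± 0.12, adjusted p = 0.0064) and Sqle (-0.57 ± 0.14, adjusted p = 0.021) were lower in SGCF too. Hmgcs1 (-0.36), Idi1 (-0.30), Fdps (0.21) and Cyp51 (-0.00) were not called. The Sqle call was lost without either 6TCF day 0 array (adjusted p = 0.12 and 0.095) or without replicate 2 of SGCF day 0 (adjusted p = 0.12), and the Lss call without replicate 1 of 6TCF day 0 (adjusted p = 0.072). Hmgcs1 was called lower in SGCF without replicate 1 of SGCF day 0 (-0.46, adjusted p = 0.031). The number of all genes called in either direction, 1830, was 2971 and 914 without replicates 1 and 2 of SGCF day 0, and 517 and 376 without replicates 1 and 2 of 6TCF day 0.

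Whether the arms had changed unequally since day 0 was tested directly. By day 5, 3 of the 8 genes had fallen further in SGCF than in 6TCF, against 5.99% of all genes with a lower difference. The difference, SGCF change minus 6TCF change, was -1.14 ± 0.20 for Cyp51, -0.87 ± 0.18 for Hmgcs1 and -0.70 ± 0.19 for Fdps (SE; adjusted p = 0.0034, 0.0082 and 0.043). For Sqle it was -0.57 ± 0.20 and for Idi1 -0.45 ± 0.34, neither called (adjusted p = 0.12 and 0.47), and for Lss -0.17, Hsd17b7 -0.04 and Srebf2 0.22. The Cyp51 call was kept in all alternatives run. The Fdps call was lost without any of 10 of the arrays (adjusted p up to 0.19) and in 4 other alternatives, with a value of -0.36 for the mean over probe sets, and the Hmgcs1 call was lost with the mean over probe sets (-0.51, adjusted p = 0.080) and without replicate 2 of 6TCF day 0 (-0.80, adjusted p = 0.051). The Sqle difference was called without replicate 2 of SGCF day 0 (-0.77, adjusted p = 0.018). The number of all genes called in either direction, 941, was 587 and 560 without replicates 1 and 2 of 6TCF day 0.

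By day 10 the genes with a called difference were others. Hsd17b7 (0.68 ± 0.18) and Srebf2 (0.84 ± 0.23) had a higher change in SGCF than in 6TCF, 2 of the 8 against 12.1% of all genes (SE; adjusted p = 0.021 and 0.022). These are 2 of the genes that were lower in SGCF at day 0 and that fell in 6TCF at day 10. The differences of Cyp51 (-0.40 ± 0.20), Hmgcs1 (-0.27 ± 0.18) and Fdps (0.07 ± 0.19) were not called by day 10 (adjusted p = 0.17, 0.29 and 0.82). The Hsd17b7 call was lost without replicate 1 of 6TCF day 0, replicate 2 of SGCF day 0, either 6TCF day 10 array or replicate 2 of SGCF day 10 (adjusted p up to 0.090). The Srebf2 call was lost without replicate 2 of either day 0 group, either 6TCF day 10 array or replicate 1 of SGCF day 10 (adjusted p up to 0.086). The Sqle difference was called without replicate 1 of SGCF day 0 (0.60, adjusted p = 0.022). The number of all genes called in either direction, 2711, was 1627 and 1424 without replicates 1 and 2 of 6TCF day 0, 1452 without replicate 1 of 6TCF day 10 and 1806 without replicate 1 of SGCF day 10.

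**Figure D3:**
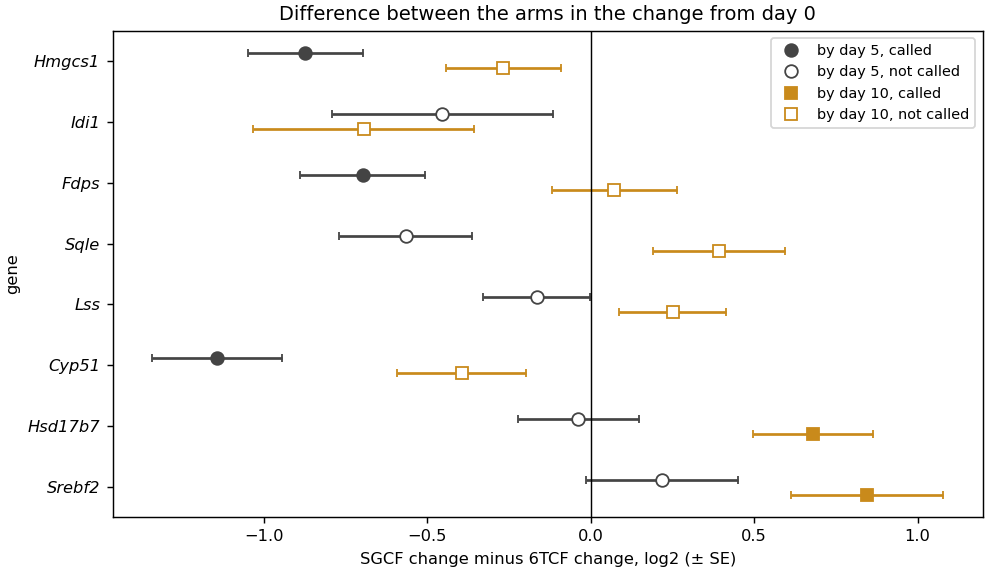
The difference between the arms, as the SGCF change minus the 6TCF change from day 0 on the log2 scale, with the SE as bars, by day 5 (circles) and by day 10 (squares). Filled points were called. Cyp51 by day 5, at -1.14, is the lowest called point and Srebf2 by day 10, at 0.84, the highest.

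Most of the other synthesis enzymes fell in SGCF. Of the 10 other cholesterol synthesis enzymes tested, 8 fell at SGCF day 5 and 8 at SGCF day 10, 6 fell at 6TCF day 5 and 5 at 6TCF day 10. The shares of all genes called lower were 12.6%, 18.2%, 12.5% and 20% in the same order. Tm7sf2 rose at both 6TCF days and Ebp at 6TCF day 10. Msmo1, the C4-methyl sterol oxidase, was lower by day 10 in both arms, at -1.04 ± 0.13 in SGCF and -0.91 ± 0.13 in 6TCF (SE; adjusted p = 7.6e-05 and 0.00018). Fdft1, the squalene synthase, changed by -0.38 ± 0.12 in SGCF and -0.66 ± 0.12 in 6TCF by day 10, both called. Of all 7 enzymes up to squalene, members included, 7 fell at both SGCF days, 6 at 6TCF day 5 and 5 at 6TCF day 10. Their median change was -0.90 at SGCF day 5 and -0.64 at 6TCF day 5.

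The later sterol steps moved in both directions in 6TCF. Of 10 enzymes from squalene to cholesterol, 7 fell at SGCF day 5 and 6 at SGCF day 10, and 5 fell at 6TCF day 5 and 6 at 6TCF day 10. Among all genes, 12.6%, 18.2%, 12.5% and 20% fell in these comparisons, and 15.1% and 23.2% rose at 6TCF days 5 and 10. Tm7sf2, the sterol C14 reductase, rose in 6TCF by 0.58 ± 0.14 at day 5 and 0.82 ± 0.14 at day 10 (SE; adjusted p = 0.0087 and 0.00059), and changed by -0.13 and 0.20 in SGCF without a call. Ebp, the sterol isomerase, rose by 0.60 ± 0.11 at 6TCF day 10 (adjusted p = 0.00091) and fell at both SGCF days, by 0.71 ± 0.11 and 0.36 ± 0.11 (adjusted p = 0.00048 and 0.021). Between SGCF days 5 and 10, 4 of the 10 other synthesis enzymes rose, against 11.7% of all genes, and the median of the 10 was 0.30.

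**Figure D4:**
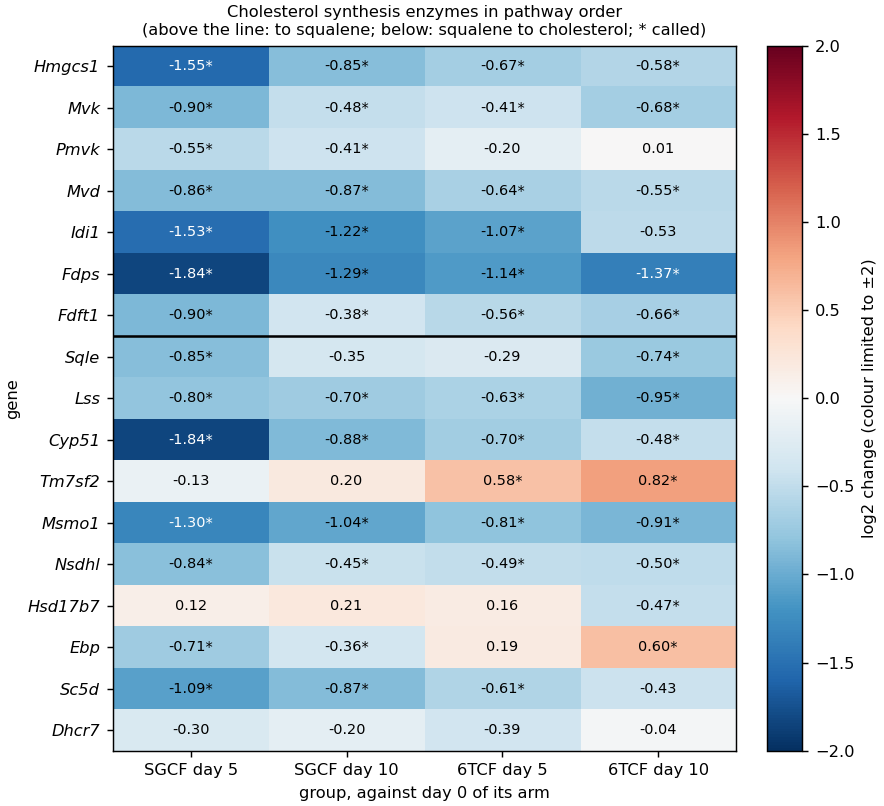
The log2 change from day 0 of the cholesterol synthesis enzymes tested in pathway order, for SGCF and 6TCF at days 5 and 10; the line divides the steps up to squalene from the later ones, colours stop at ±2 and asterisks mark called changes. Blue fills most cells of the upper block, and the called red cells are Tm7sf2 at both 6TCF days and Ebp at 6TCF day 10.

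Few of the genes that control SREBP processing were called in either direction. Of all genes, 12.8% rose and 12.6% fell at SGCF day 5, and 20.4% and 18.2% at SGCF day 10. At 6TCF day 5, 15.1% rose and 12.5% fell, and at 6TCF day 10, 23.2% and 20%. Of the 5 control genes tested, Srebf2 included, 1 rose at each of the 4 time points. Of these 5, 2 fell at 6TCF day 5, 1 at 6TCF day 10 and 0 at either SGCF day. Counts this small among 5 genes do not set these genes apart from all genes, nor 1 arm from the other. The falls were those of Srebf2, given above, and of Insig2, an anchor of SCAP, by 0.35 ± 0.12 at 6TCF day 5 (SE; adjusted p = 0.047, limma). The rising gene was Scap, which encodes the sterol sensor that escorts SREBP proteins. Its SGCF day 0 arrays lay apart, with an SD of 0.55 (n = 2). Scap rose by 0.92 ± 0.20 at SGCF day 5 and 1.28 ± 0.20 at SGCF day 10, and by 1.15 ± 0.20 and 0.70 ± 0.20 at 6TCF days 5 and 10 (SE; adjusted p = 0.0056, 0.00041, 0.0012 and 0.015). Srebf1, which encodes the SREBP1 proteins of fatty acid synthesis, was not called at any of them, with changes of 0.20 and 0.24 in SGCF and 0.29 and -0.04 in 6TCF. On single arrays Srebf1 ranged from 9.25 to 9.91 in SGCF and from 9.44 to 9.90 in 6TCF. The SGCF days overlapped, and both 6TCF day 5 arrays, at 9.80 and 9.90, lay above the other 4 arrays of that arm without a call. Insig1, an SREBP2 target that holds SCAP back, was not analysed here.

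Uptake and transport genes moved in both directions. Of 7 tested, 4 fell and 2 rose at SGCF day 5, and 3 fell and 4 rose at SGCF day 10. In 6TCF, 1 fell and 3 rose at day 5, and 2 fell and 4 rose at day 10. The shares of all genes called lower and higher were 12.6% and 12.8% at SGCF day 5 and 18.2% and 20.4% at SGCF day 10. They were 12.5% and 15.1% at 6TCF day 5 and 20% and 23.2% at 6TCF day 10. Tmem97, a sterol-regulated partner of NPC1, fell at all 4, by 0.68 ± 0.13 and 1.17 ± 0.13 in SGCF and by 0.52 ± 0.13 and 0.66 ± 0.13 in 6TCF (SE; adjusted p = 0.0024, 2.6e-05, 0.011 and 0.0016). Lipa, the lysosomal acid lipase that frees cholesterol from lipoprotein esters, rose by day 10 by 0.78 ± 0.13 in SGCF and 1.31 ± 0.13 in 6TCF (adjusted p = 0.00073 and 1.2e-05). Npc1, which exports cholesterol from lysosomes, was higher by 0.73 ± 0.21 at SGCF day 10 and changed by -0.71 ± 0.21 at 6TCF day 10 (adjusted p = 0.015 and 0.016), and the difference between the arms was 1.44 ± 0.29 (adjusted p = 0.0053).

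Most of the genes of cholesterol efflux and oxysterol metabolism rose at both 6TCF days and at SGCF day 10, but not at SGCF day 5. Of 7 tested, 6 rose at 6TCF day 5 and 6 at 6TCF day 10, where 15.1% and 23.2% of all genes rose. At SGCF day 5, 1 (Cyp27a1) rose and 1 (Apoe) fell, where 12.8% of all genes rose and 12.6% fell. At SGCF day 10, 5 rose, against 20.4% of all genes. Cyp7b1, an oxysterol hydroxylase, changed by 0.14 ± 0.22 at SGCF day 5 (adjusted p = 0.69) and rose by 2.88 ± 0.22 at SGCF day 10, by 2.11 ± 0.22 at 6TCF day 5 and by 3.69 ± 0.22 at 6TCF day 10 (SE; adjusted p = 1.1e-06, 1.8e-05 and 1.4e-07). Abca1, the transporter that loads cholesterol onto apolipoproteins and a target of the oxysterol receptors LXR, averaged 9.13 ± 0.63, 9.70 ± 0.04 and 11.13 ± 0.04 at SGCF days 0, 5 and 10, and 9.27 ± 0.11, 10.91 ± 0.27 and 11.13 ± 0.09 in 6TCF (SD, n = 2). Apoe, a cholesterol-carrying apolipoprotein, averaged 9.02 ± 0.07, 8.64 ± 0.06 and 10.78 ± 0.04 in SGCF and 8.21 ± 0.13, 10.03 ± 0.16 and 11.88 ± 0.05 in 6TCF. Its change by day 5, SGCF minus 6TCF, was -2.20 ± 0.18 (adjusted p = 2.0e-05, limma). By then 3 of the 7 genes had a lower change in SGCF, against 5.99% of all genes.

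Fatty acid synthesis genes, which answer mainly to SREBP1, gave no common direction. Of 10 tested, 4 fell at SGCF day 5 and 2 rose at SGCF day 10, 1 fell at 6TCF day 5, and 4 fell and 1 rose at 6TCF day 10. The shares of all genes called lower were 12.6% at SGCF day 5, 12.5% at 6TCF day 5 and 20% at 6TCF day 10. Those called higher were 20.4% at SGCF day 10 and 23.2% at 6TCF day 10. Fasn, the fatty acid synthase, fell by 1.47 ± 0.18 at 6TCF day 10 (SE; adjusted p = 5.1e-05) and changed by -0.04 ± 0.18 at SGCF day 10 (adjusted p = 0.89). The difference between the arms was 1.43 ± 0.25 (adjusted p = 0.0025). Scd1, a stearoyl-CoA desaturase, rose by 0.77 ± 0.18 at SGCF day 10 (adjusted p = 0.0060), and Acss2, which makes cytosolic acetyl-CoA from acetate, rose by 0.49 ± 0.15 at 6TCF day 10 (adjusted p = 0.019). Between SGCF days 5 and 10, 6 of the 10 rose, against 11.7% of all genes. Of 5 genes that use farnesyl diphosphate for other products, 2 rose and 1 fell at 6TCF day 10, against 23.2% and 20% of all genes. Fnta of protein prenylation rose by 0.51 ± 0.12 and Dhdds of dolichol synthesis by 0.45 ± 0.14, while Icmt, the prenylcysteine methyltransferase, fell by 0.60 ± 0.12 (adjusted p = 0.0052, 0.022 and 0.0024). Of the same 5, 1 (Ggps1) fell at 6TCF day 5 (12.5% of all genes), 1 rose at SGCF day 5 (12.8%) and 0 were called at SGCF day 10. The SGCF day 5 rise was that of Icmt, by 0.43 ± 0.12 (adjusted p = 0.025).

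**Figure D5:**
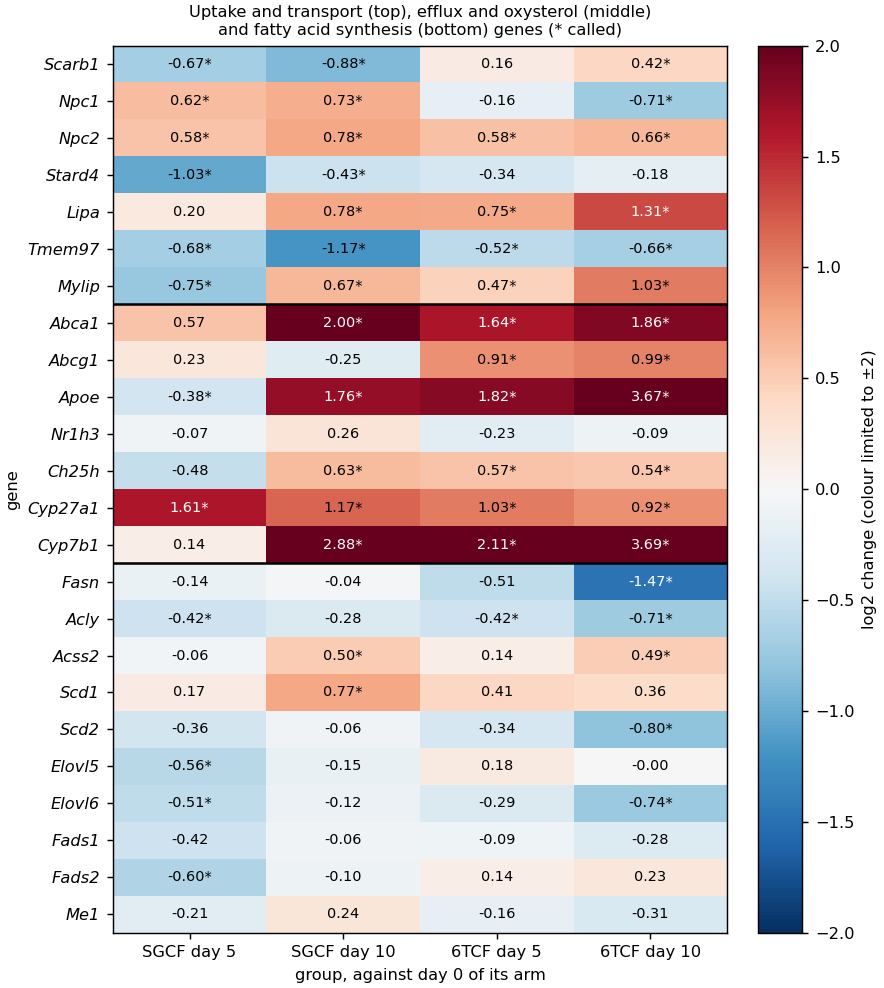
The log2 change from day 0 of uptake and transport genes (top), efflux and oxysterol genes (middle) and fatty acid synthesis genes (bottom), for SGCF and 6TCF at days 5 and 10; colours stop at ±2 and asterisks mark called changes. In the middle block 6 genes are called higher at each 6TCF day, whereas 1 is called higher at SGCF day 5, Cyp27a1 at 1.61.

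Other measures moved over the same days. The summed intensity of 16 macrophage markers was 8158 and 9003 at SGCF day 0, 798 and 669 at day 5, and 554 and 687 at day 10. In 6TCF it was 3878 and 3680 at day 0, 984 and 1153 at day 5, and 1873 and 1745 at day 10. C1qa, a complement subunit, averaged 4.90 at SGCF day 10, under the floor of 5.27, against 9.41 at day 0 (adjusted p = 2.2e-09), so the size of its fall is not given. Lyz2, a lysozyme, stayed above the floor and fell by 4.42 ± 0.27 in SGCF, and Ctss, a lysosomal protease, fell by 2.78 ± 0.30 in 6TCF by day 10 (SE; adjusted p = 2.1e-07 and 1.7e-05). Other macrophage markers were not called at 6TCF day 10: Csf1r (-0.05), Mrc1 (0.07), Spi1 (0.18), Aif1 (-0.30) and Cx3cr1 (-0.41). Spi1 was called higher at 6TCF day 5 (0.40 ± 0.12, adjusted p = 0.031, limma). All 16 markers lay above the floor for dim genes on the day 0 arrays. On the day 10 arrays 8 and 9 of them did in SGCF, and 14 and 13 in 6TCF. The summed intensity of 11 proliferation genes was 17157 and 16989, 12018 and 12013, and 6269 and 5128 at SGCF days 0, 5 and 10, and 12678 and 12813, 12415 and 11881, and 9365 and 9937 at the same days of 6TCF. Their sum was thus lowest at SGCF day 10, where all 10 tested were called lower than at day 0, against 18.2% of all genes. There Bub1, a spindle checkpoint kinase, changed by -2.71 ± 0.21 (adjusted p = 1.8e-06, limma), while Cyp51, Hmgcs1, Fdps and Sqle were above their day 5 level. The actin 3' minus 5' difference, which grows as RNA loses its 5' ends, was 0.27 and 0.38, 0.47 and 0.41, and 0.45 and 0.46 at SGCF days 0, 5 and 10 and 0.29 and 0.38, 0.74 and 0.85, and 1.01 and 1.01 in 6TCF. The same difference for Gapdh did not rise steadily in 6TCF, at 0.33 and 0.42, 0.58 and 0.39, and 0.48 and 0.48 on these days. In SGCF it was 0.01 and -0.05, 0.17 and 0.03, and 0.12 and 0.10. The part of these measures in the falls of the synthesis genes was not tested.

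The members resembled each other to different degrees. With each array's value taken relative to the mean of its arm, the correlation of a member with the mean of the other 7 over the 12 arrays was 0.97 for Fdps, 0.95 for Lss, 0.94 for Sqle, 0.90 for Hmgcs1, 0.82 for Cyp51, 0.81 for Srebf2 and 0.72 for Idi1, against 0.09 for Hsd17b7. The 12 points share their 6 groups and the normalization. The 10 genes outside the 8 whose profile over the arrays was most like the members' mean were Spry1, Myl9, Pdlim5, Fhl1, Acta2, Akap12, Denn2b, Fbln5, Glis2 and Actg2, with r between 0.97 and 0.98. Acta2 and Actg2 are smooth muscle actins, Myl9 a myosin light chain, Fbln5 an elastic fibre protein and Spry1 an inhibitor of growth factor signalling. Spry1 changed by -1.50 and -0.87 at SGCF days 5 and 10 and by -0.74 and -1.27 at 6TCF days 5 and 10, and Acta2 by -2.18 and -1.15 in SGCF and -1.03 and -1.63 in 6TCF. Srebf1 had r = -0.23 and rank 6464. No synthesis enzyme outside the 8 was among the 10.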

How the data were processed

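Gene expression was measured on 12 Affymetrix Mouse Genome 430A 2.0 arrays of mouse embryonic fibroblasts, with groups and replicate numbers taken from the sample titles. The deposited values are linear intensities per probe set. RMA, MAS5 and limma appear in the submitters' processing notes with no version, and the notes do not say which of them produced the deposited intensity values. Array medians differed, so quantile normalization between arrays was applied here, although the planned design had allowed for values already normalized. Log2(intensity + 16) was then taken from the normalized intensities.

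Of 22690 probe sets, 64 were controls, 20380 carried a single symbol in the platform annotation, 691 several and 1555 were unnamed, and those with several were not used. An Entrez match to RefSeq on GRCm38.p6 held for 20351 of the 20380, and 0 symbols changed. The brightest probe set on average stood for each of 12393 genes, and 10674 of these exceeded the floor, the 25th percentile of the normalized values (log2 5.27), in at least 1 group mean. Tests used limma 3.58.1 in R 4.3.3 with 6 group means on all 12 arrays, 6 residual and 5.53 prior degrees of freedom, and Benjamini-Hochberg adjustment over 10674 genes in each of 9 comparisons. Called means an adjusted p under 0.05. The scripts were tested on simulated data. Errors are the SE of the log2 change or the SD of a group.

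The alternatives were scaling each array to a common median, a pseudocount of 1, no filter on dim genes, the mean over a gene's probe sets, the replicate number as a block, the 6 arrays of 1 arm only, the 4 day 0 arrays of both arms as 1 group, and leaving out each array. The 8 genes and all 13 gene lists (mevalonate enzymes, sterol enzymes, SREBP control, uptake and transport, efflux and oxysterol, fatty acid synthesis, non-sterol isoprenoid and proliferation genes, and fibroblast, macrophage, endothelial, adipocyte and hepatocyte markers) were chosen with earlier results of these data known. The rule for named genes took the 8 genes in every comparison, the largest called rise and fall of each list and arm by day 10, Insig1 and Srebf1, and the 10 genes most like the 8. Fdft1, Ebp, Abca1, Apoe, Cyp27a1, Insig2, Dhdds, Ggps1, Lyz2, Csf1r, Mrc1, Spi1, Aif1 and Cx3cr1 were named after their values were seen. Some genes that the rule takes are not reported here. Figures were drawn with matplotlib 3.10.9.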

Additional observations from a re-analysis of the deposited data

Results flagged for a closer look

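For 5 genes the change from day 0 was called different between the arms by the test of the difference itself. The Cyp51 call was kept in all alternatives run, and each of the other calls was lost in some of them. Each value is the SGCF change minus the 6TCF change on the log2 scale. By day 5 it was -0.87 for Hmgcs1, -0.70 for Fdps and -1.14 for Cyp51, each of which had fallen in both arms. By day 10 it was 0.68 for Hsd17b7 and 0.84 for Srebf2, both of which had fallen in 6TCF and were not called in SGCF. At day 0 both were lower in SGCF than in 6TCF, at -1.14 for Hsd17b7 and -1.04 for Srebf2. The brightness of the deposited arrays coincided with the arm, and its part in these differences was not tested. No group had enough arrays for a test of single outlying arrays.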

How the results depend on the processing

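Over 1304 combinations of a gene, a comparison and an alternative, 1211 kept their direction and their side of the threshold, 54 lost a call, 24 gained one and 15 changed sign. Where no cause follows from the construction of the alternative, the cause was not tested. The count of the 8 genes called lower at 6TCF day 10 against day 0, 7, became 4 with the 4 day 0 arrays of both arms as 1 group. The 1 gene called lower at 6TCF day 10 against day 5 became 3 with the mean over probe sets and 3 with the 6 arrays of that arm only. The 3 genes with a lower change in SGCF by day 5 became 1 with the mean over probe sets.

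Leaving out 1 array at a time, the counts called lower ranged over 6 to 7 at SGCF day 5, 5 to 6 at SGCF day 10, 4 to 6 at 6TCF day 5, 5 to 8 at 6TCF day 10, 0 to 4 at 6TCF day 10 against day 5, 2 to 5 for SGCF against 6TCF at day 0, and 1 to 4 for the difference by day 5. The counts called higher ranged over 2 to 4 at SGCF day 10 against day 5, 0 to 1 at 6TCF day 10 against day 5, and 0 to 3 for the difference by day 10. With 1 array left in a group, that array is assumed to vary like the other groups.

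The 15 changes of sign were those of values near 0 or of changes measured against both day 0 groups. With the 4 day 0 arrays as 1 group, Hsd17b7 was at -0.45 at SGCF day 5, -0.36 at SGCF day 10 and 0.10 at 6TCF day 10. With median scaling the difference by day 10 of Fdps was -0.036 and that by day 5 of Hsd17b7 0.055. With the mean over probe sets the difference by day 5 was 0.0066 for Hsd17b7 and -0.024 for Srebf2. Leaving out 1 array at a time, Fdps by day 10 ranged from -0.11 to 0.25, Cyp51 at day 0 from -0.12 to 0.12, Hsd17b7 at SGCF day 10 against day 5 from -0.013 to 0.18 and Hsd17b7 by day 5 from -0.14 to 0.066. Median scaling moved the median of all genes by less than 0.1 in every comparison.

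The labels do not say whether the replicate numbers pair the samples. Deviations of same-numbered arrays within an arm correlated at -0.27 to 0.11, so no shared effect of the replicate number was seen. With the replicate block, the difference of Fdps by day 5 was -0.70 with an adjusted p of 0.059, so that 2 genes were called there, and no other call of the 8 genes changed.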

Other observations

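Marker genes of other lineages were measured on the same arrays. Among all genes, 20.4% rose and 18.2% fell at SGCF day 10, and 23.2% rose and 20% fell at 6TCF day 10. Of 6 adipocyte markers tested, 4 rose at SGCF day 10 and 4 at 6TCF day 10. The largest rises by day 10 were those of Fabp4, a fatty acid carrier, at 2.45 ± 0.17 in SGCF, and of Lpl, the lipoprotein lipase, at 2.10 ± 0.16 in 6TCF (SE; adjusted p = 5.3e-07 and 1.3e-06, limma). Of 6 hepatocyte markers, 2 rose at SGCF day 10 and 2 rose and 1 fell at 6TCF day 10. Alb, which encodes albumin, averaged 8.54 at SGCF day 10 and 7.61 at 6TCF day 10, against 4.89 at day 0 of each arm (adjusted p = 3.3e-07 and 2.9e-06). The day 0 averages lay under the floor of 5.27, so the size of its rise is not given. Ttr, transthyretin, fell by 0.57 ± 0.17 in 6TCF (adjusted p = 0.019). Cyp7a1, the first enzyme of bile acid synthesis from cholesterol, was below the floor for dim genes.

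Of 10 fibroblast markers, 4 rose and 3 fell at SGCF day 10, and 3 rose and 6 fell at 6TCF day 10. The shares of all genes called higher and lower were 20.4% and 18.2% at SGCF day 10, and 23.2% and 20% at 6TCF day 10. Pdgfra, a growth factor receptor, rose by 1.86 ± 0.20 in SGCF and by 2.08 ± 0.20 in 6TCF (adjusted p = 2.1e-05 and 7.2e-06), while S100a4 fell by 1.52 ± 0.13 in SGCF and Pdgfrb by 1.61 ± 0.17 in 6TCF (adjusted p = 2.9e-06 and 1.9e-05). Of 6 endothelial markers, 2 rose and 2 fell at SGCF day 10, and 2 rose and 3 fell at 6TCF day 10. The largest changes were those of the receptors Kdr at 1.45 ± 0.14 and Flt1 at -1.38 ± 0.20 in SGCF, and of the adhesion molecule Esam at 1.12 ± 0.19 and Flt1 at -1.31 ± 0.20 in 6TCF (adjusted p = 6.6e-06, 0.00019, 0.00051 and 0.00026). The part of these changes in those of the synthesis genes was not tested.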
